A study of Mus musculus with 33 samples.

Results

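The data described here are the liver transcript levels of 10 mouse genes whose enzymes build or break down glycerolipids. They are Gpam and Gpat3 (glycerol 3-phosphate acyltransferases), Agpat2 and Agpat3 (acylglycerol phosphate acyltransferases), Lpin1 and Lpin2 (lipins), Mogat1 (monoacylglycerol acyltransferase 1), Dgat1 and Dgat2 (diacylglycerol acyltransferases) and Mgll (monoacylglycerol lipase). They were chosen by gene symbol: of the 45101 probe sets on the array, 23 carried one of these symbols, and 21 of those passed a filter on dim signals that left 17162 probe sets and 9005 genes. All 10 genes were among the 9005, each through its brightest probe set. Mogat1 passed the filter through its 12 fenofibrate arrays alone.

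Liver RNA of 33 male C57BL/6J mice, 17 weeks old, was hybridised to 1 Affymetrix whole-genome array per mouse. The 12 fenofibrate mice ate a diet with fenofibrate at 0.03% of its weight and sunflower oil, the 11 fish oil mice a diet with fish oil, in which EPA made up 23.1% and DHA 21.1%, and the 10 control mice the sunflower oil diet alone (81.3% oleic acid). The oil supplied 7% of energy in every group, so that the control is itself a diet enriched in oleic acid. The diets lasted 2 weeks, animals were housed in pairs, and all were fasted between 7 and 13 h on the clock on the day the livers were taken.

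As background, hepatocytes assemble triglyceride by adding acyl chains stepwise to glycerol 3-phosphate: a GPAT makes lysophosphatidic acid, an AGPAT makes phosphatidic acid, a lipin removes the phosphate to leave diacylglycerol, and a DGAT adds the last chain. Monoacylglycerol acyltransferases reach diacylglycerol by another route, from monoacylglycerol, which is the dominant route in the intestine and a minor one in normal mouse liver, while monoacylglycerol lipase removes monoacylglycerol by hydrolysis. Fenofibrate is a drug that activates the nuclear receptor PPARα. As a partner of RXR, this receptor binds to direct repeats of AGGTCA spaced by 1 base (DR1). The long-chain n-3 acids of fish oil are known as ligands of PPARα.

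The promoter windows of the gene with the widest difference between groups and of both GPAT genes, which moved in unlike ways on the diets, are shown from 250 bases before to 50 bases after the annotated start (RefSeq, GRCm38.p6). Windows were found for 8 of the 10 genes, all but Dgat1 and Dgat2. The Mogat1 window is chr1:78510810-78511109 on the plus strand, the Gpat3 window chr5:100845979-100846278 on the plus strand, and the first of the 2 Gpam windows chr19:55127189-55127488 on the minus strand. Capitals mark motif matches.
Mogat1: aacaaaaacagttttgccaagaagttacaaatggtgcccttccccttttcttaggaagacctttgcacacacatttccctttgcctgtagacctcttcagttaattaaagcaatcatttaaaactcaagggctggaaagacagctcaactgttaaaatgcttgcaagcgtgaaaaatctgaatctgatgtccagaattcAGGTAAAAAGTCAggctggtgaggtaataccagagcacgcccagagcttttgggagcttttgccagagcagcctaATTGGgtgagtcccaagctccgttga
Gpat3: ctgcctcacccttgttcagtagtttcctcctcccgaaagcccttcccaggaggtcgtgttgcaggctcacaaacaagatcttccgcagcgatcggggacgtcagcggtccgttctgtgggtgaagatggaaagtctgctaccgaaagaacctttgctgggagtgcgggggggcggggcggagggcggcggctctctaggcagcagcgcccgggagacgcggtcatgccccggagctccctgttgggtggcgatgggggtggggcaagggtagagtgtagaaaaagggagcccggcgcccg
Gpam: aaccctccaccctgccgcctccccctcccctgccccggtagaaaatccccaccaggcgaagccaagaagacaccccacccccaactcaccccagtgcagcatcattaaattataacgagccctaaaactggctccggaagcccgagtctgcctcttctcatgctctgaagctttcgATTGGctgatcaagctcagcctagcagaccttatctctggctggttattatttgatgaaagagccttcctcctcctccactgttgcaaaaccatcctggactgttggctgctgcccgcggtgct
The Mogat1 window held AGGTAAAAAGTCA, first base at -51 from the start, which matches the DR1 pattern AGGTCANAGGTCA with 2 mismatches. Such a match, allowing up to 2 mismatches on either strand, stood in 3.86% of 32851 windows of this length, and an exact match in 0.0396%. It was the only such match in the windows of the 8 genes. With several windows searched, a match in some window is likelier than the share for a single window. Both Mogat1 and Gpam held a CCAAT box (as ATTGG, on the opposite strand), which 37.4% of all windows hold. The Gpat3 window held none of the motifs searched, which besides these were the half-site AGGTCA (a part of DR1, in 16.3% of windows), an SRE-like TCACNCCAC (1.24%), the E-box CACGTG (7.15%) and TATAAA (13.6%). The half-site stood in the second Gpam window and in the Lpin1 window, which are not shown. A match of letters is a description and no measurement of binding.

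Values are the authors' log2 expression values. A difference is that of group means with its SE from limma, and a gene was called higher or lower at an adjusted p under 0.05 (Benjamini-Hochberg over the 9005 genes). On fenofibrate 6 of the 10 genes were called higher than on the control diet, 1 was called lower and 3 were not called. Among all genes 40.8% were called in this comparison, 22% higher and 18.9% lower. On fish oil 2 genes were called higher, 1 lower and 7 not, beside 14.5% of all genes, 7.53% higher and 7% lower. Between the diets 7 genes were called higher on fenofibrate, 1 lower and 2 not, beside 38.9% of all genes, 19.8% higher and 19.1% lower. The median difference of the 10 genes from control was 0.45 on fenofibrate and -0.04 on fish oil, and between the diets it was 0.48. Over all genes these medians were -0.0016, 0.014 and -0.0091. The comparisons share their control or diet arrays and are not independent of each other. Mogat1, which the filter admitted through its fenofibrate arrays alone, is counted among the genes higher on fenofibrate in both comparisons.

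The ranges of the arrays did not overlap for 5 genes between fenofibrate and control (Mogat1, Dgat1, Gpat3, Agpat3 and Mgll), as for 5.41% of all genes. The same held for 5 genes between fenofibrate and fish oil (Mogat1, Gpam, Gpat3, Agpat3 and Mgll) beside 6.34% of all genes, and for 0 of the 10 between fish oil and control beside 1.05%. Mogat1 is in both fenofibrate counts, having passed the filter through its fenofibrate arrays alone. In bulk liver, fewer cells of a type and less RNA per cell cannot be told apart.

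**Figure D1:**
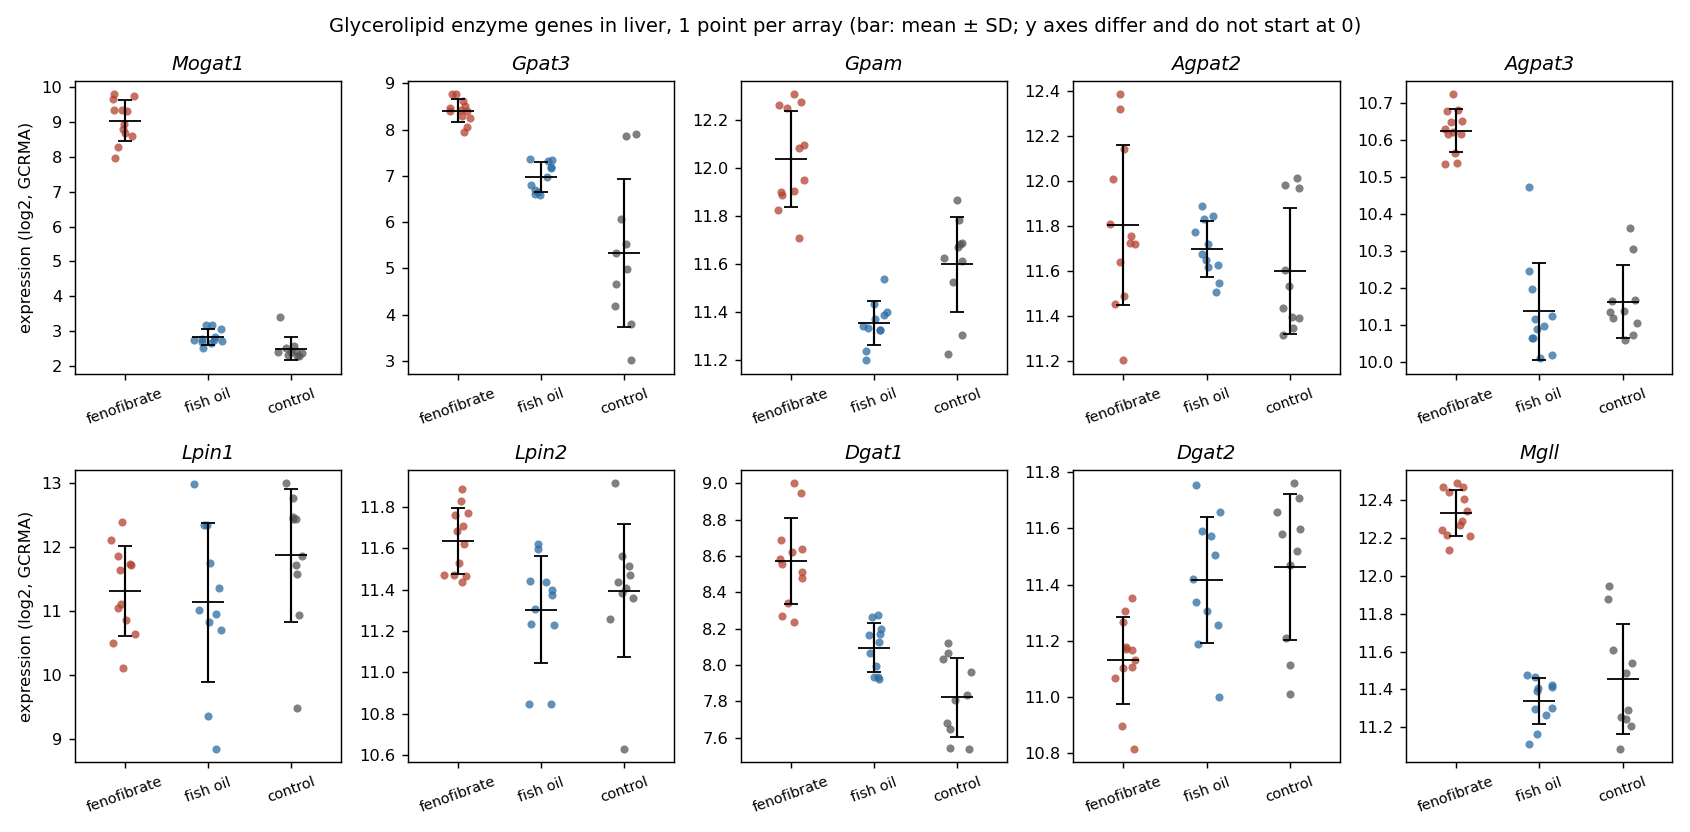
Log2 expression of the 10 genes, 1 point per array, with the mean ± SD of each group (fenofibrate n = 12, fish oil n = 11, control n = 10). Mogat1 lies between 7.96 and 9.80 in the fenofibrate arrays and at or under 3.39 in all others, Gpat3 controls spread from 3.02 to 7.91, and Lpin1 spreads widely in every group.

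Mogat1, the monoacylglycerol acyltransferase, was far above its control level on fenofibrate and near that level on fish oil. Its log2 values (lowest, median, highest) were 7.96, 9.14 and 9.80 in fenofibrate livers, 2.50, 2.73 and 3.18 in fish oil livers, and 2.26, 2.40 and 3.39 in control livers. The weakest fenofibrate array was 4.56 above the strongest control and 4.78 above the strongest fish oil array. The differences were 6.56 ± 0.17 against control (adjusted p = 9.05e-25) and 6.23 ± 0.17 against fish oil (2.15e-24). Mogat1 was tested only because its fenofibrate arrays passed the filter, so these p-values describe the gap and are no separate support for it. On the linear scale 6.56 is a ratio of 94.4, with a 95% interval from 73.9 to 121. The size of that ratio rests on values near the bottom of the scale: control and fish oil arrays stood below the filter level of 4, and the array medians over all probe sets were 2.90 to 2.97. Set against the filter level itself, the fenofibrate mean was 5.05 higher, a ratio of 33.1. Fish oil differed from control by 0.33 ± 0.18, which was not called (adjusted p = 0.225), and the means lie where the filter counts a probe set as dim. The SE pools an SD of 0.59 in fenofibrate livers with 0.22 in fish oil and 0.33 in control livers. Control replicate 9 stood at 3.39 and the next control at 2.55. Leaving out single arrays gave differences of 0.30 to 0.43, none of them called (lowest adjusted p = 0.0825).

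Both GPAT genes rose on fenofibrate but differed on fish oil. Gpat3 encodes the endoplasmic reticulum GPAT best known from adipose tissue. Its values were 7.95, 8.42 and 8.76 in fenofibrate livers, 6.58, 6.98 and 7.37 in fish oil livers, and 3.02, 5.16 and 7.91 in control livers. The fenofibrate arrays lay above all arrays of both other groups, and 8 of the 10 controls lay below the lowest fish oil array while 2 lay above the highest. Gpat3 rose by 3.07 ± 0.37 on fenofibrate (adjusted p = 4.17e-08) and by 1.63 ± 0.38 on fish oil (0.00281), and it was 1.43 ± 0.36 higher on fenofibrate than on fish oil (0.00193). The 95% interval of the fish oil difference ran from 0.86 to 2.41. The SD was 0.25 in fenofibrate livers and 0.32 in fish oil livers, against 1.60 in control livers. The fit pools these unequal spreads into 1 SE.

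Gpam encodes the mitochondrial GPAT of liver, a known target of SREBP-1c. Its values were 11.71, 12.02 and 12.31 in fenofibrate livers, 11.20, 11.34 and 11.54 in fish oil livers, and 11.23, 11.65 and 11.87 in control livers. Of the fenofibrate arrays 10 of 12 lay above every control, and all 12 above every fish oil array. Gpam rose by 0.44 ± 0.07 on fenofibrate (adjusted p = 1.17e-05), a ratio of 1.36, and was 0.68 ± 0.07 higher on fenofibrate than on fish oil (2.38e-09). On fish oil it fell by 0.25 on the log2 scale (SE 0.08, adjusted p = 0.0246), with 7 of 10 controls above the highest fish oil array. That fall was not called without control replicate 10 (adjusted p = 0.0569), with the mean of both Gpam probe sets (0.119) or with consecutive label numbers as a random block (0.0785). Without control replicates 1, 2 and 9, of which the last 2 were below all other controls in Gpam, the difference was -0.34.

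Of the AGPAT genes, Agpat3 rose on fenofibrate and Agpat2 was not called on either diet. Agpat3, whose enzyme in mice is known for placing polyunsaturated chains such as DHA in phosphatidic acid, had 10.53, 10.63 and 10.72 in fenofibrate livers, 10.01, 10.10 and 10.47 in fish oil livers, and 10.06, 10.14 and 10.36 in control livers. Its rise of 0.46 ± 0.05 (adjusted p = 8.11e-10) was small but the arrays did not overlap, since the SD in fenofibrate livers was 0.06. On fish oil the difference was -0.03 ± 0.05 (adjusted p = 0.776), with an interval from -0.12 to 0.07. Agpat2, loss of which causes lipodystrophy in humans and mice, had 11.20, 11.74 and 12.39 in fenofibrate livers, 11.51, 11.68 and 11.89 in fish oil livers, and 11.31, 11.49 and 12.01 in control livers. The groups overlapped widely. The differences were 0.20 ± 0.11 on fenofibrate (adjusted p = 0.157) and 0.10 ± 0.12 on fish oil (0.641). Control replicates 1, 2 and 9 were the 3 highest controls, so leaving them out had to raise the fenofibrate difference, which was then 0.37.

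Neither lipin gene was called against control through its brightest probe set, and Lpin1 spread widely among mice of one group. Lpin1 encodes the phosphatidic acid phosphatase that also acts as a transcriptional coactivator, and its mRNA in liver is known to respond to fasting. Its values were 10.10, 11.37 and 12.39 in fenofibrate livers, 8.84, 11.02 and 12.97 in fish oil livers, and 9.48, 12.15 and 12.99 in control livers. The range over all 33 arrays was 4.15, and the groups overlapped. The differences were -0.56 ± 0.41 on fenofibrate (adjusted p = 0.295, interval from -1.40 to 0.28) and -0.73 ± 0.42 on fish oil (0.267, interval from -1.59 to 0.12). Both Lpin1 probe sets gave like values, -0.56 and -0.58 on fenofibrate.

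Lpin2, the other lipin with high expression in liver, had 11.44, 11.65 and 11.89 in fenofibrate livers, 10.85, 11.38 and 11.62 in fish oil livers, and 10.63, 11.42 and 11.92 in control livers. All 12 fenofibrate arrays lay within the control range. Its brightest probe set differed by 0.24 ± 0.10 on fenofibrate, which was not called (adjusted p = 0.0634), and by 0.33 ± 0.10 between the diets, which was called (0.00928). The other 3 Lpin2 probe sets were called higher on fenofibrate than on control, by 0.44, 0.45 and 0.84. Without control replicate 1 the brightest was called too (0.30, adjusted p = 0.0166).

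The DGAT genes, whose enzymes catalyse the last step, moved in opposite directions on fenofibrate. Dgat1 had 8.24, 8.57 and 9.00 in fenofibrate livers, 7.92, 8.13 and 8.28 in fish oil livers, and 7.54, 7.82 and 8.12 in control livers. All fenofibrate arrays lay above all controls, and 6 of 11 fish oil arrays did. Dgat1 rose by 0.75 ± 0.09 on fenofibrate (adjusted p = 1.12e-08), a ratio of 1.68, and by 0.27 ± 0.09 on fish oil (0.0305). The fish oil call was lost with consecutive label numbers as a random block (adjusted p = 0.0936), without control replicates 1, 2 and 9 (0.146), with no filter (0.0513) and without control 2, 4, 8 or 9 or fish oil 3 or 7 (up to 0.0636). Dgat1 rests on 1 probe set whose suffix (_s_at) marks probes that can bind transcripts of other genes.

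Dgat2 had 10.81, 11.15 and 11.35 in fenofibrate livers, 11.00, 11.42 and 11.75 in fish oil livers, and 11.01, 11.55 and 11.76 in control livers. The ranges overlapped, with 2 of 12 fenofibrate arrays below every control. Dgat2 fell by 0.33 on fenofibrate on the log2 scale (SE 0.09, adjusted p = 0.00344), and its second probe set by 0.38. It was also lower on fenofibrate than on fish oil (-0.29 ± 0.09, adjusted p = 0.00963), and the difference of fish oil from control was -0.05 ± 0.09 (0.803). Control replicates 1, 2 and 9 were the 3 lowest controls, and leaving them out, which had to widen the difference, gave -0.48.

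Mgll, the lipase that splits the substrate of Mogat1 into fatty acid and glycerol, rose on fenofibrate as well. It had 12.13, 12.32 and 12.49 in fenofibrate livers, 11.11, 11.39 and 11.47 in fish oil livers, and 11.09, 11.39 and 11.95 in control livers. Every fenofibrate array lay above every array of both other groups. The rise was 0.88 ± 0.08 against control (adjusted p = 1.13e-10), a ratio of 1.84, and the difference 0.99 ± 0.08 against fish oil (3.41e-12). Fish oil livers differed from control livers by -0.12 ± 0.08 (0.378). The probe set that stands for Mgll carries the suffix _s_at, as that of Dgat1 does. Its other probe sets past the filter (_a_at) were 0.97 and 1.03 higher on fenofibrate than on control.

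**Figure D2:**
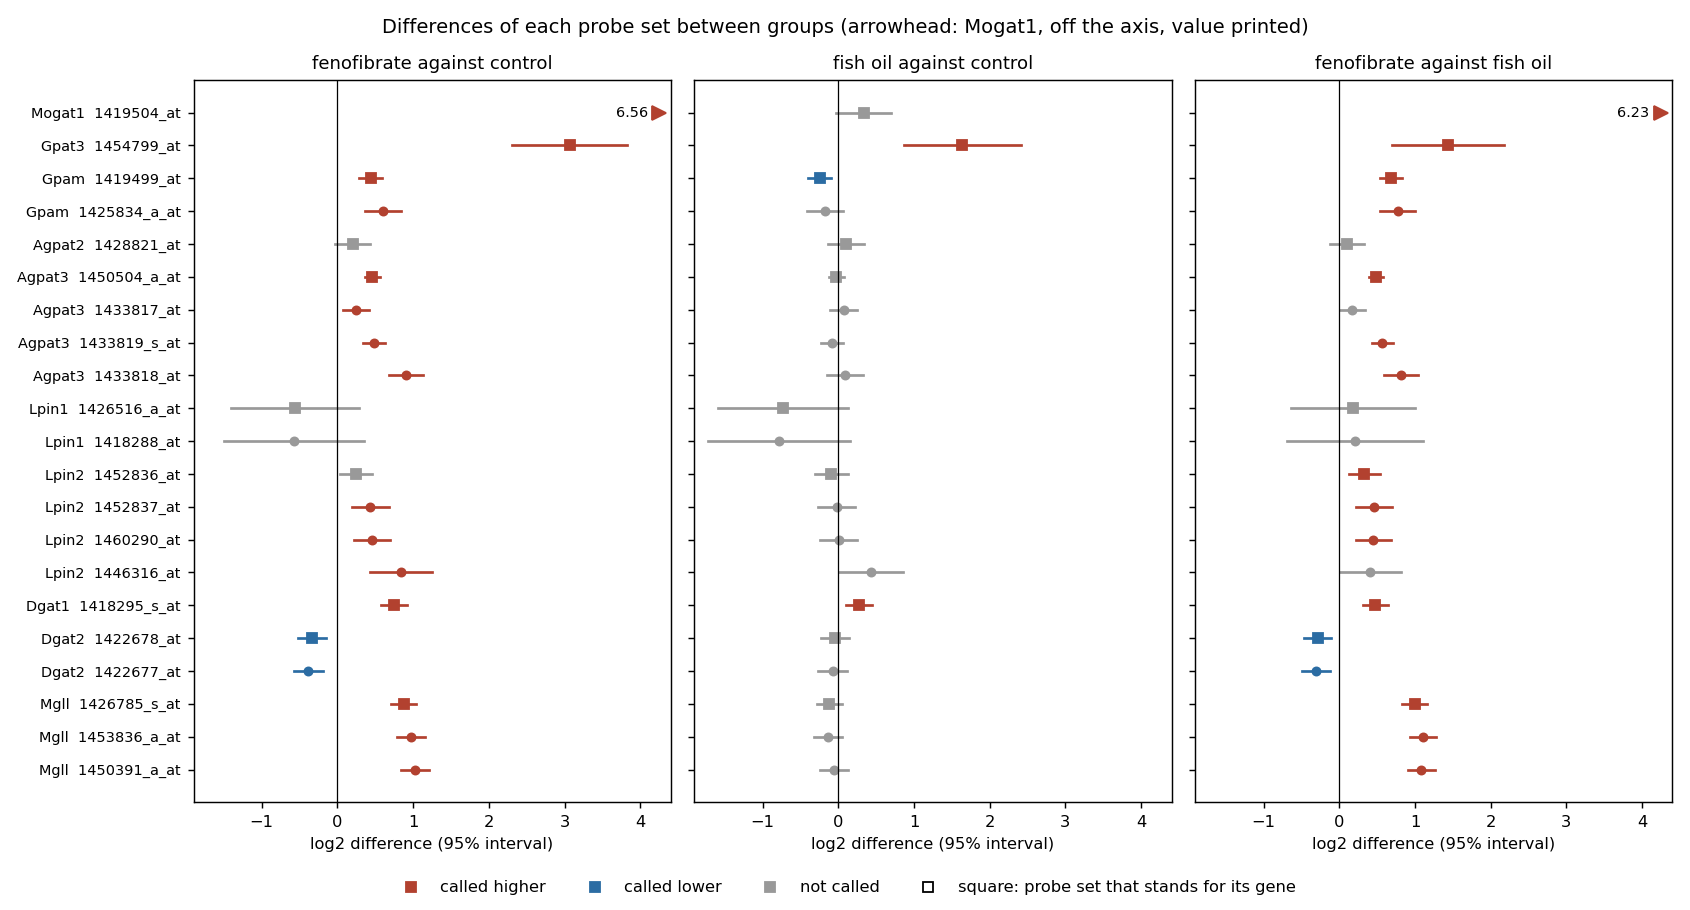
Log2 difference and 95% interval of the 21 probe sets past the filter in the 3 comparisons, the comparison group on the left of each title minus the one on the right. Squares are the probe sets that stand for their gene. All probe sets of Gpam, Agpat3 and Mgll were called higher on fenofibrate than on control, while most fish oil intervals include 0.

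The probe sets of a gene mostly moved together. On fenofibrate 15 of 21 probe sets were called higher than control, 2 lower and 4 not, beside 36.6% of all probe sets called. On fish oil 2 were called higher, 1 lower and 18 not (11.6% of all called), and between the diets 14 higher, 2 lower and 5 not (34.5%). The 4 Agpat3 probe sets gave rises between 0.25 and 0.91 on fenofibrate, the 3 of Mgll between 0.88 and 1.03, and the second Gpam probe set 0.60. On fish oil the second Gpam probe set differed by -0.17 and was not called. A Dgat1 and an Mgll probe set stayed under the filter, with highest values of 3.13 and 2.51.

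Control replicates 1, 2 and 9 of the 10 stood apart in several of these genes; earlier results of these data had already set them apart. Gpat3 was at 7.86, 6.07 and 7.91 in them, against 3.02 to 5.53 in the 7 other controls. In Agpat2 all 3 lay above the 7 others (11.97 to 12.01, against 11.31 to 11.61), and in Dgat2 all 3 lay below them (11.01 to 11.21, against 11.47 to 11.76). Lpin1 was at 10.93 and 9.48 in replicates 1 and 2, under the lowest of the 7 others (11.57), and Mgll at 11.88 and 11.95 in replicates 1 and 9, above their highest (11.61). Genes of the circadian clock moved with these arrays: the median of 14 clock genes lay -1.32, -0.62 and -0.49 from the mean of the 7 other controls, which themselves spanned -0.20 to 0.13. Fenofibrate arrays spanned -0.92 to -0.21 on the same measure and fish oil arrays -0.83 to 0.10. The part of these clock genes in the results was not tested.

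Without these 3 controls, Gpat3 was 3.90 higher on fenofibrate and 2.47 higher on fish oil than the 7 remaining controls. Since the 3 are the highest Gpat3 controls, leaving them out had to widen these differences and narrow the spread, so the larger values are no separate support for them. Of the 10 genes 7 were then called higher and 1 lower on fenofibrate, the added one being Agpat2, while 1990 of all 9005 genes were called higher and 1786 lower. On fish oil 1 of the 10 was called higher and 1 lower, beside 713 and 722 of all genes. The clock list, in which 0 of 14 genes were called higher and 1 lower on fenofibrate with all arrays, had 1 higher and 8 lower without the 3 controls, which were also the lowest controls in the clock median. The single clock call on fenofibrate was lost with label pairs as a random block.

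**Figure D3:**
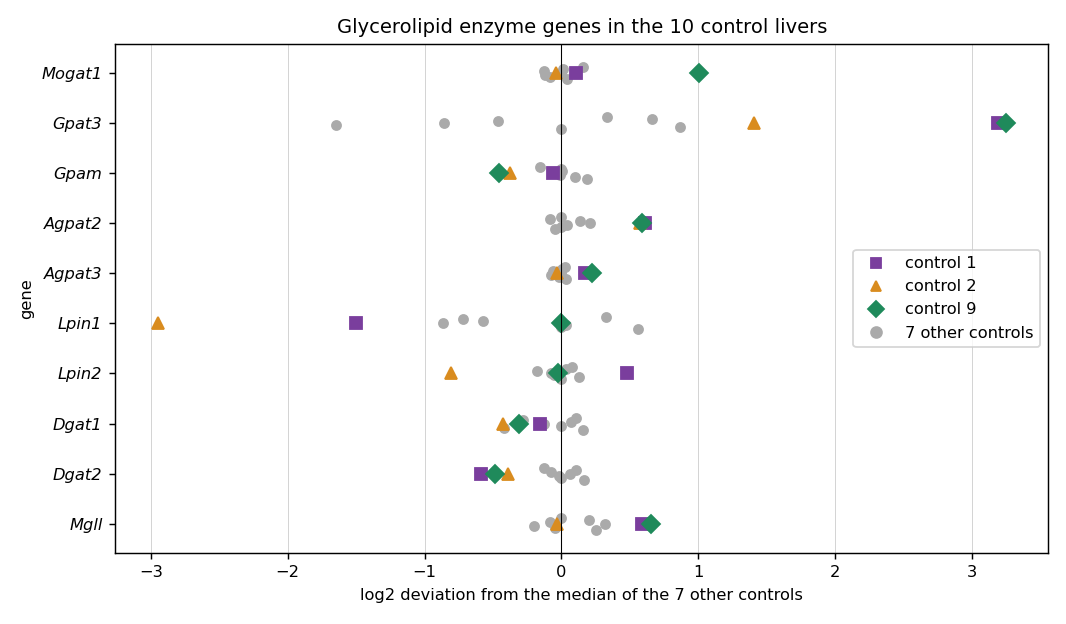
Deviation of each control array from the median of the 7 other controls, in log2 units, for the 10 genes, with replicates 1, 2 and 9 marked. All 3 lie above the other controls in Gpat3 and Agpat2 and below them in Dgat2.

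Label numbers were paired as an odd number and the next even number, and both arrays of such a pair always carried the same diet. The p-values here take all arrays as independent. Over all genes the correlation within such pairs, estimated by limma, was 0.23. The labels do not say what the numbers mean, and cage mates, isolation order or hybridisation order cannot be told apart. Among the 10 genes Lpin1 varied least within pairs relative to its group spread: the SD within the 16 complete pairs was 0.53 against a pooled SD within groups of 1.01. For Lpin2 these were 0.25 and 0.25, and for Gpat3 0.82 and 0.91. The fish oil arrays with label numbers 1 and 2 had the lowest Lpin1 values of their group (8.84 and 9.36) and its lowest Lpin2 values (both 10.85). The next label numbers, 3 and 4, were control replicates 1 and 2, of the controls that stood apart. They had the lowest Lpin1 values of the controls (10.93 and 9.48). The part of label order in these values was not tested. With the pairs as a random block all 7 fenofibrate calls against control were kept, as was the rise of Gpat3 on fish oil (adjusted p = 0.0107), while the fish oil calls of Dgat1 and Gpam were lost.

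**Figure D4:**
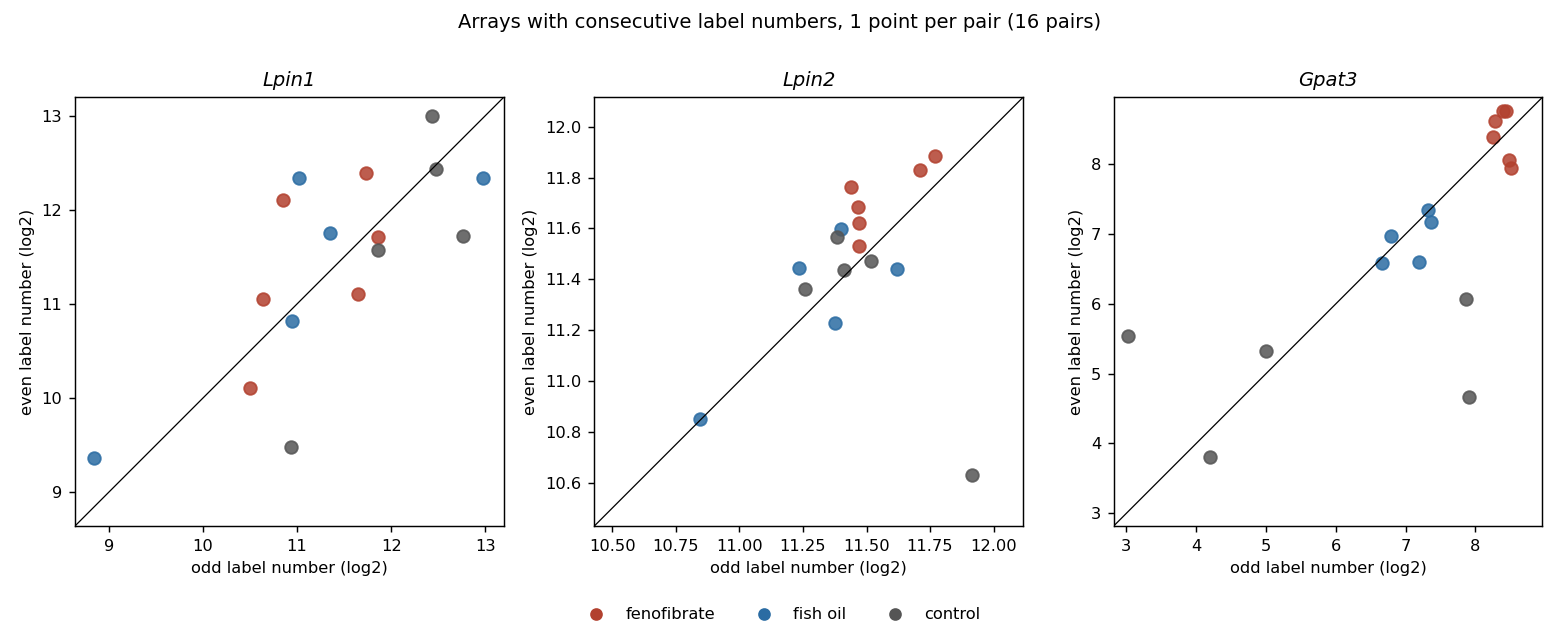
Log2 expression in the 2 arrays of each of 16 pairs with consecutive label numbers, the odd number on the x axis and the even number on the y axis, for Lpin1, Lpin2 and Gpat3, coloured by diet. The Lpin1 points follow the diagonal from the fish oil pair at 8.84 and 9.36 upward, and a control pair (Lpin2 11.92 and 10.63) lies far from it in Lpin2.

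The other enzymes that make glycerolipids moved in both directions on fenofibrate. Beside this and each later list stand the shares of all genes called. These were 22% higher and 18.9% lower on fenofibrate, 7.53% and 7% on fish oil, and 19.8% and 19.1% between the diets. Of 12 such genes 7 were measured: on fenofibrate 3 were called higher and 2 lower (median 0.18), on fish oil 1 higher and 1 lower (0.02), and between the diets 3 higher and 0 lower (-0.11). Lclat1, an acyltransferase of cardiolipin and lysophospholipids, averaged 9.12 ± 0.12 in fenofibrate livers, 8.73 ± 0.09 in fish oil livers and 8.60 ± 0.15 in control livers (SD), a rise of 0.53 on fenofibrate (adjusted p = 1.7e-09). Plpp1, a lipid phosphate phosphatase of the plasma membrane, fell by 0.41 on fenofibrate (0.000142) and by 0.26 on fish oil (0.0323). The fish oil call of Plpp1 was lost with label pairs as a random block (0.0642), with no filter (0.0544), without control replicates 1, 2 and 9 (0.0620) and without some single arrays. Gpat4, the second endoplasmic reticulum GPAT, differed by 0.18 on fenofibrate (not called, 0.218) and was called higher on fish oil (0.35, 0.0376), a call lost with label pairs as a random block (0.107), with no filter (0.0617) and without any one of 12 of the 21 arrays compared (up to 0.0793). With that block 0 of the 7 genes were called in either direction on fish oil.

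Several other relatives that share these reactions stayed dim. Mogat2, the intestinal monoacylglycerol acyltransferase, was at most 2.55 in all 33 arrays. Lpin3 reached 4.07 in fenofibrate livers, with 2 arrays above 4, and at most 3.65 in fish oil livers and 3.63 in control livers. Gpat2, Agpat1 and Agpat4 stayed under 4 in every array.

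Genes that supply the substrates were called in both directions. Of 5 genes measured for glycerol and glycerol 3-phosphate supply, 3 were called higher and 0 lower on fenofibrate (median 0.28) and 1 higher on fish oil (0.05). Gpd1, which makes glycerol 3-phosphate in the cytosol, averaged 11.36 ± 0.17 in fenofibrate livers, 11.38 ± 0.12 in fish oil livers and 11.04 ± 0.29 in control livers, and was called higher on both diets (0.32 and 0.34). Of 6 genes that activate fatty acids, 5 were called higher and 1 lower on fenofibrate (median 0.45), and 1 higher and 3 lower on fish oil (-0.30). Acsl5, an acyl-CoA synthetase, was 0.63 higher on fenofibrate and fell by 0.56 on fish oil, as Gpam did in direction. Acsl3, which feeds acyl-CoA to lipid droplets, averaged 8.24 ± 0.23 in fenofibrate livers, 5.80 ± 0.40 in fish oil livers and 7.44 ± 0.48 in control livers, and fell by 1.64 on fish oil (adjusted p = 4.24e-09).

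**Figure D5:**
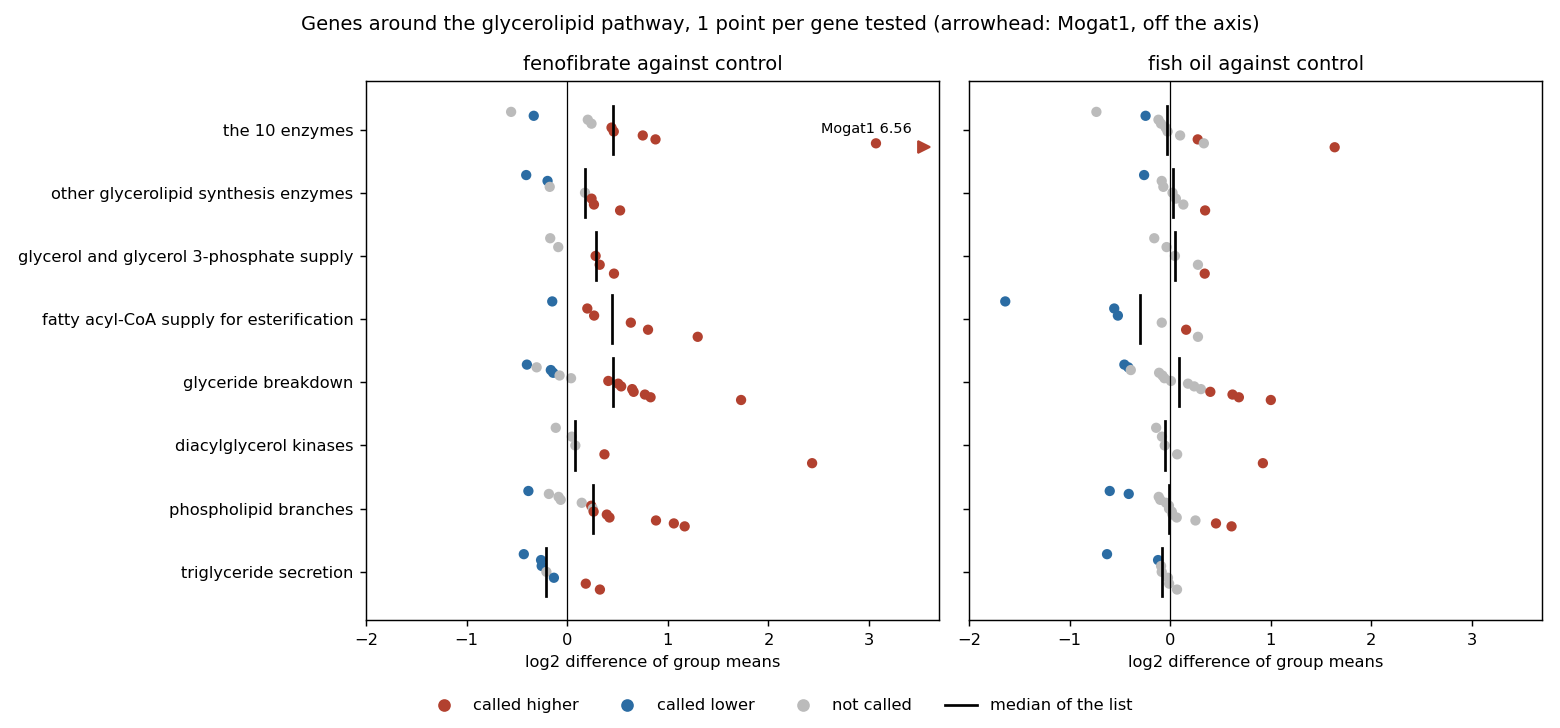
Log2 difference from control of each gene tested in the 10 enzymes and in 7 lists around them, for fenofibrate (left panel) and fish oil (right panel), with the median of each list as a bar. Mogat1 at 6.56 is off the axis on fenofibrate, and the acyl-CoA supply list has its median at 0.45 on fenofibrate and -0.30 on fish oil.

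Of 14 measured genes of glyceride breakdown, 8 were called higher and 3 lower on fenofibrate (median 0.46), 4 higher and 2 lower on fish oil (0.09), and 6 higher and 2 lower between the diets (0.27). Abhd6, another monoacylglycerol hydrolase, averaged 11.01 ± 0.14 in fenofibrate livers, 10.28 ± 0.27 in fish oil livers and 9.28 ± 0.52 in control livers. It rose by 1.73 on fenofibrate (adjusted p = 4.96e-12) and by 1.00 on fish oil (3.95e-06), where Mgll was not called. Pnpla2, the adipose triglyceride lipase, rose by 0.65 on fenofibrate (1.92e-06). Lipa, the lysosomal acid lipase, rose by 0.41 on fenofibrate and fell by 0.42 on fish oil.

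Diacylglycerol also feeds phospholipids. Of 13 genes measured in the phospholipid branches 7 were called higher and 1 lower on fenofibrate (median 0.25), 2 higher and 2 lower on fish oil (-0.01), and 8 higher and 0 lower between the diets (0.26). Chpt1, which makes phosphatidylcholine from diacylglycerol, averaged 11.91 ± 0.11 in fenofibrate livers, 11.64 ± 0.07 in fish oil livers and 11.03 ± 0.21 in control livers, and rose on both diets (0.88 and 0.61). Chkb, a choline kinase, rose by 1.17 on fenofibrate, and Pcyt2, of the phosphatidylethanolamine branch, fell by 0.60 on fish oil (adjusted p = 5.37e-11). Of 5 diacylglycerol kinases measured 2 were called higher on fenofibrate (median 0.08) and 1 on fish oil (-0.05), with 0 lower. Dgkh averaged 6.28 ± 0.31 in fenofibrate livers, 4.77 ± 0.46 in fish oil livers and 3.85 ± 0.99 in control livers and rose by 2.43 on fenofibrate (3.03e-09). Its rise of 0.92 on fish oil was not called with label pairs as a random block (0.0615).

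Of 7 genes of triglyceride secretion 2 were called higher and 4 lower on fenofibrate (median -0.21), 0 higher and 2 lower on fish oil (-0.08), and 3 higher and 4 lower between the diets (-0.12). Mttp, the microsomal triglyceride transfer protein, rose by 0.32 on fenofibrate (adjusted p = 2.72e-05), and P4hb, its partner subunit, fell by 0.26 (2.1e-05). Tm6sf2, which acts in the lipidation of secreted particles, fell by 0.63 on fish oil (0.00333). With label pairs as a random block 1 of the 7 was called lower on fish oil.

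Of 9 regulators measured 2 were called higher and 1 lower on fenofibrate, and 1 higher and 3 lower on fish oil (medians 0.01 and -0.26). Among all genes 40.8% were called on fenofibrate and 14.5% on fish oil. With label pairs as a random block the regulator counts were 1 higher and 0 lower on fenofibrate, and 0 higher and 1 lower on fish oil. The gene still called lower on fish oil was Insig1. Without single arrays it differed from control by -1.19 to -1.02 on fish oil (adjusted p up to 1.0e-06). Between the diets it was 1.24 to 1.40 higher on fenofibrate (up to 2.2e-09). Ppara itself averaged 12.27 ± 0.17 in fenofibrate livers, 12.30 ± 0.17 in fish oil livers and 12.26 ± 0.25 in control livers and was not called in any of the 3 comparisons. Pparg, the adipogenic relative, averaged 5.89 ± 0.34 in fenofibrate livers, 5.24 ± 0.34 in fish oil livers and 5.02 ± 0.44 in control livers, a rise of 0.87 on fenofibrate (adjusted p = 2.6e-05). Srebf1, which encodes SREBP-1, fell by 0.58 on fish oil (0.0197) and was 1.02 higher on fenofibrate than on fish oil (6.85e-06). Its difference of 0.44 on fenofibrate against control was called (0.0364) but was 0.14 without control replicates 1, 2 and 9 (0.475). With label pairs as a random block Srebf1 was called neither on fenofibrate (0.0770) nor on fish oil (0.0580) against control.

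Likeness over the 33 arrays was measured by Pearson's r, which takes in the differences between the diet groups. A second r was taken on deviations from the group means. It rests on the same arrays that picked the genes. The genes most like Mogat1 were Cox6b2 (0.992), Slc39a5 (0.985), Slc27a1 (0.984), Ndufab1 (0.979) and Cd36 (0.968). On deviations their r was 0.62, 0.49, 0.55, 0.53 and 0.33 in the same order. Those most like Gpat3 were Slc22a5 (0.945), Rab30 (0.934), Tdrp (0.928), Oplah (0.921) and Ehhadh (0.916). On deviations these had 0.85, 0.87, 0.79, 0.76 and 0.72. In Gpat3 the wide control group (SD 1.60) weighs heavily in both kinds of r. The genes most like Gpam were M6pr (0.931), Acsl5 (0.910), Fdft1 (0.895), Haus7 (0.895) and Cpn1 (0.894). On deviations these had 0.77, 0.58, 0.76, 0.52 and 0.50. Since the first r takes in the diet differences, genes picked by it share the diet pattern of Gpam by selection. On fenofibrate these genes differed from control by 0.16 (M6pr), 0.63 (Acsl5), 0.40 (Fdft1), 0.77 (Haus7) and 0.25 (Cpn1). On fish oil they differed by -0.07, -0.56, -0.75, -0.41 and -0.25 in the same order.

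Hepatocyte markers were bright, as the tissue label says: 8 of 8 were measured, and the log2 of their summed level was 17.14 to 17.27 in fenofibrate livers, 17.25 to 17.36 in fish oil livers and 17.31 to 17.41 in control livers. Of these 8, 6 were called lower on fenofibrate and 3 on fish oil (1 with label pairs as a random block). Since Mogat1, Gpat3, Agpat2 and Mgll are well known from adipose tissue and monoacylglycerol acyltransferase activity from the intestine, markers of both were examined. Of 8 adipocyte markers 6 had a probe set and 3 passed the filter (Car3, Cidec and Fabp4). Cidec was 3.90 and Fabp4 1.28 higher on fenofibrate and Car3 fell by 0.56. The defining Adipoq, Lep and Retn were at most 2.69 in any array. The summed adipocyte level was 13.13 to 14.13 in fenofibrate livers, 14.12 to 14.48 in fish oil livers and 13.73 to 14.44 in control livers. Lower on fenofibrate, this sum followed Car3, the only measured adipocyte marker called lower there. It does not stand for the list as a whole, since Cidec and Fabp4 rose. Of 6 intestinal markers 5 had a probe set: Vil1, Lct and Cdx2 were at most 3.35, while Fabp2 and Apoa4, which liver also expresses, passed the filter. Their summed level was 12.69 to 13.43 in fenofibrate livers, 10.90 to 11.32 in fish oil livers and 12.47 to 14.29 in control livers. Stellate markers moved with fenofibrate, with 4 of 6 measured genes called lower and summed levels of 12.26 to 12.52 in fenofibrate livers, 12.52 to 12.77 in fish oil livers and 12.54 to 12.78 in control livers. Of 7 sinusoidal endothelial markers 1 was called higher and 3 lower on fenofibrate, and 0 higher and 2 lower on fish oil. Their summed level was 11.76 to 11.99 in fenofibrate livers and 11.78 to 12.01 in fish oil livers, against 12.01 to 12.20 in control livers. Of 8 Kupffer cell markers 2 were called lower on fenofibrate and 0 on fish oil, with summed levels of 12.07 to 13.08 in fenofibrate livers, 12.41 to 13.29 in fish oil livers and 12.59 to 13.26 in control livers. Among all genes 18.9% were called lower on fenofibrate and 7% on fish oil. The part of cell composition in the results was not tested.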

How the data were processed

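The authors deposited 1 log2 expression value per probe set and array. GCRMA 2.24.1 is the tool named in the submitters' processing notes; as background, it subtracts an estimate of non-specific binding, and dim probe sets pile up near the bottom of its scale. The 64 array control probe sets were left out. Probe sets were named through the platform annotation with symbols updated by gene identifier to GRCm38.p6. A probe set was kept where 10 or more of the 33 arrays reached a log2 value of 4, and the brightest probe set by mean stood for its gene (9005 genes). One linear model over the 3 groups was fitted per gene with limma 3.58.1 (lmFit, contrasts and eBayes; statmod 1.5.0, R 4.3.3), with two-sided tests and Benjamini-Hochberg adjustment over all genes of a comparison, or over the 17162 probe sets. Simulated data with known differences were used to check the fit. They were independent normal values with the same SD in every group for a gene. That check therefore does not cover correlated label pairs or unequal spreads. Precision is limited by the number of arrays.

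The 10 genes and the lists around them were chosen with earlier results of these data known. The text names every one of the 10 genes with all its probe sets, and the 5 genes most like Mogat1, Gpat3 and Gpam. It also names 7 genes fixed beforehand (Gpat4, Agpat1, Mogat2, Lpin3, Srebf1, Pparg and Ppara). From each other list except the markers, a rule took up to 3 called genes per comparison with the smallest adjusted p. Only some of the genes taken by this rule are named, so those named are not always the strongest of their list. Alternatives tried were no filter and a filter at 6, centred arrays, the mean of a gene's probe sets, an intensity trend with a robust prior, 2-group fits, weights per array, a block for the replicate number, a random block for label pairs, and leaving out control replicates 1, 2 and 9, the 5 arrays with a letter A in their label, or each array in turn. Replicate numbers come from the titles. Nothing in the labels ties same-numbered mice of different groups, so the numbers were not taken as pairs. Promoter windows are RefSeq sequences of GRCm38.p6.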

Additional observations from a re-analysis of the deposited data

Results flagged for a closer look

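The controls were searched for a single array far from the other 9, by the gap to its nearest neighbour over the range of the group (Dixon's test), in each of the 10 genes; groups over 10 arrays were not searched. Chance flags about 1 in 20 groups at this level. Mogat1 in control replicate 9 was at 3.39, where the next control was at 2.55. This is below the filter level of 4. Lpin2 in control replicate 2 was at 10.63, where the other controls lay at 11.26 or higher, and the same array had the lowest Lpin1 value of the controls (9.48). Both arrays belong to the 3 controls that stood apart in Gpat3, Agpat2 and Dgat2.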

How the results depend on the processing

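The fenofibrate calls against control of Mogat1, Gpat3, Mgll, Dgat1, Agpat3, Gpam and Dgat2 were kept under every alternative that tested them and without each array in turn, as were all 8 calls between the diets. The fish oil counts were fragile. The 2 genes (and 2 probe sets) called higher became 1 with no filter, with label pairs as a random block and without control replicates 1, 2 and 9; leaving out single arrays gave 1 to 2 genes and 1 to 3 probe sets. The 1 gene called lower became 0 with the mean of probe sets and with label pairs as a block, and the 1 probe set called lower became 0 with no filter and with label pairs and 2 without control replicates 1, 2 and 9; leaving out single arrays gave 0 to 1 of each. With label pairs as a block 845 genes in all were called on fish oil, against 1308 without. Over probe sets these were 1297 and 1986.

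On fenofibrate Agpat2 became called with array weights (0.27, adjusted p = 0.0251), as did Lpin2 with array weights (0.24, 0.0255) and with the mean of its probe sets (0.49, 0.000931).

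Differences near 0 changed sign. On fish oil Agpat3 was 0.0133 with the mean of probe sets and 0.0143 without control replicates 1, 2 and 9, and Lpin2 was 0.0793 with the mean of probe sets. Between the diets Lpin1 was -0.0655 without the arrays with a letter A and -0.0528 to 0.360 without single arrays (its dimmer probe set -0.0521 to 0.412). On fish oil the dimmest Mgll probe set past the filter was 0.0559 without control replicates 1, 2 and 9 (single arrays -0.114 to 0.0188). One dimmer Lpin2 probe set was 0.00694 without the letter A arrays (single arrays -0.0987 to 0.04995), and another was -0.0164 with centred arrays, -0.0225 with array weights and -0.00146 with label pairs (single arrays -0.0759 to 0.0744). Ppara on fenofibrate was -0.00786 centred, -0.00391 with the mean of probe sets, -0.00681 with array weights and -0.0238 with the replicate block (single arrays -0.0450 to 0.0443). Without single arrays it was -0.0565 to 0.00143 between the diets and -0.0133 to 0.0731 on fish oil. The cause was not tested.

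With the replicate number as a block no call of the 10 genes changed (Gpat3 on fish oil, adjusted p = 0.00423). Of 31 same-numbered pairs 12 had a correlation of deviations above 0.1 (range -0.21 to 0.35), and 4 of 33 arrays were closest to their own number. No reference share stands beside these values, so they cannot decide whether same-numbered mice were matched. Among other named genes the block ended the call of Srebf1 on fenofibrate (0.41, adjusted p = 0.0706). Calls lost without one of several single arrays were those of Cry2, Gpd1l, Scap and Srebf1 on fenofibrate, Gpat4, Plpp1, Sar1b and Scap on fish oil and Agpat5 and Plpp2 between the diets (adjusted p up to 0.0917).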
